A study of Mus musculus with 2 samples.

Results

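Histone genes were followed in 2 single-cell RNA libraries of tumour immune cells from mice. The genes were all listed symbols that start with Hist1h, Hist2h, Hist3h, Hist4h or H2af, together with H3f3a, H3f3b and H1f0, and that had at least 1 UMI (unique molecular identifier, the count of 1 captured RNA molecule) over both libraries. Of 79 such symbols 72 met the limit, among 20543 symbols with a UMI and 32245 listed in all. Just inside the limit were Hist1h2ah with 2 UMIs and Hist2h2aa2 with 3, and at 0 UMIs were Hist1h2bq, Hist1h1t, Hist1h2ba, Hist1h2aa, H2afb1, H2afb2 and H2afb3. The set was picked because Hist1h1c and Hist1h2bc were lower in the library labelled Tdg knockout, so the comparison between libraries is given as a description.

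The cells came from allografted subcutaneous tumours, described as KP tumours and dissected on day 14 after inoculation. Live CD45-positive cells, that is white blood cells, were sorted after Percoll enrichment, and RNA 3′ ends were counted with a 10x Genomics droplet kit. One library has the genotype label WT (called Tdg_WT) and the other the label Tdg KO (called Tdg_KO), and both share the day and the sort. The rule that chose the set names them KP and KPT, so whether both came from the same KP tumour cells is not known. The product of Tdg is thymine DNA glycosylase, which removes mispaired or oxidised bases from DNA. The labels do not say whether the tumour cells or the host carry the genotype, nor how many tumours or mice went into a library. Levels are given as CPM, the UMIs of a gene per 1000000 UMIs of the summed cells. Tdg itself had 993 UMIs (25.1 CPM) in Tdg_WT and 1385 UMIs (26.5 CPM) in Tdg_KO and was not lower there, so "Tdg_KO" stands for the library with that label throughout. Counts of 3′ ends do not show which part of a gene is present, and these counts therefore do not check the label. With 1 library per group there was no test between them, and genotype and library cannot be told apart. Every interval below is a 95% interval that covers counting error only.

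Histones package DNA. Pairs of the core histones H2A, H2B, H3 and H4 form the nucleosome, and linker H1 binds where the DNA enters and leaves it. Most Hist-named genes are replication-dependent: they are clustered in the genome, are transcribed mainly in S phase, and their RNA normally ends in a conserved stem-loop bound by stem-loop binding protein in place of a poly(A) tail. The variants H2A.Z (H2afz, H2afv), macroH2A (H2afy), H2A.X (H2afx), H3.3 (H3f3a, H3f3b) and H1.0 (H1f0) are made outside S phase as well, mostly from polyadenylated RNA. Droplet 3′ kits prime on poly(A), so histone RNA with a poly(A) tail is what they mainly count.

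The stem-loop is shown first because it marks which annotated transcripts can end in the replication-dependent way. The pattern searched starts with GG and any 2 bases, goes on with CTTTT and any 1 base, and ends with AG, any 2 bases and CC, on the transcript strand of the longest protein-coding GENCODE transcript of each gene. Its 16 bases are in capitals, with up to 5 bases on either side.
Hist1h1c: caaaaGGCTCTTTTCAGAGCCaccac
Hist1h1e: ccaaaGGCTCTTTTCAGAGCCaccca
Hist1h2ap: aaaaaGGCTCTTTTCAGAGCCatc
Hist2h2ac: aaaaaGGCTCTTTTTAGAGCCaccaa
Hist1h4i: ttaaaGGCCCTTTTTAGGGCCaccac
H2afx: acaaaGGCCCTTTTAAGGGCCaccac
In Hist1h2ap the annotated transcript stopped 3 bases after the stem-loop, the form that histone RNA takes without a poly(A) tail. In Hist1h1c it ran on for 840 bases and held the polyadenylation signal AATAAA in its last 50 bases. Hist1h1e ran on for 1153 bases and Hist1h4i for 330. The pattern was not found in the transcripts of Hist1h2bc and Hist1h1b, which says only that these letters are not in those transcripts.

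Of the 63 Hist-named genes with a UMI, 21 had the stem-loop within 100 bases of the transcript's end, 21 had it with more than 100 bases after it, and 21 had no match. A polyadenylation signal (AATAAA or ATTAAA) stood in the last 50 bases in 1, 10 and 4 of these. The median UMI count over both libraries was 173 in the first group, with 6 genes at 500 UMIs or more. It was 917 in the second group, with 13 such genes, and 157 in the third, with 2. Most of the well-counted Hist-named genes were thus those annotated with a longer 3′ end. Transcripts in each group also share sequence with other transcripts, and their annotated lengths differ. The part of either in these counts was not tested.

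The promoters of Hist1h1c, Hist1h1e, Hist1h1d and Hist1h1b are shown because these 4 linker genes hold the same 3 motifs and have different ratios between the libraries (given below), and that of Hist1h4i because it lacks the CCAAT and H1 boxes. Each run is the 250 bases upstream of the start, 5′ to 3′ on the gene's strand, from RefSeq (GRCm38.p6), with capitals at matches of 4 motifs: CCAAT as the CCAAT box, TATANA as a TATA box, AAACACA as the H1 box and ATGCAAAT as the octamer. Both strands were searched and matches may overlap.
Hist1h1c, chr13:23738557-23738806, plus strand: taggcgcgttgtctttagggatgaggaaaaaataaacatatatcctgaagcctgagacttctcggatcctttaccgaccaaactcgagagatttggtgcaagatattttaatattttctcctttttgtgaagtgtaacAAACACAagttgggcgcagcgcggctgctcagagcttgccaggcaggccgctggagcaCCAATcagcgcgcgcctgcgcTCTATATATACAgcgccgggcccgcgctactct
Hist1h1e, chr13:23622559-23622808, minus strand: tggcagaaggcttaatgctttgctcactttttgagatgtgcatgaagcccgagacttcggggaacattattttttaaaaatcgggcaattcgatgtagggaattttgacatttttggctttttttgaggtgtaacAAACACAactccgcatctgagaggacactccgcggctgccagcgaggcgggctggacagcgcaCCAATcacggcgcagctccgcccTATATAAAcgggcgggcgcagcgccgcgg
Hist1h1d, chr13:23554782-23555031, plus strand: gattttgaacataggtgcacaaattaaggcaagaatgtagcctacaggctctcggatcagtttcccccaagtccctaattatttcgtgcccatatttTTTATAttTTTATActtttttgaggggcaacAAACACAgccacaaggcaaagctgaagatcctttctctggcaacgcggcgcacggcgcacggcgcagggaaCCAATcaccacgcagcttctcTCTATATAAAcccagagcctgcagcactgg
Hist1h1b, chr13:21780626-21780875, minus strand: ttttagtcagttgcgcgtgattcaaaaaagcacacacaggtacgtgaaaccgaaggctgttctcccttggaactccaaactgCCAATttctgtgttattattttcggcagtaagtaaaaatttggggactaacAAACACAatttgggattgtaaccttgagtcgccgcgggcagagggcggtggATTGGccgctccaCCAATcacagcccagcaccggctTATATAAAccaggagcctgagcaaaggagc
Hist1h4i, chr13:22041363-22041612, minus strand: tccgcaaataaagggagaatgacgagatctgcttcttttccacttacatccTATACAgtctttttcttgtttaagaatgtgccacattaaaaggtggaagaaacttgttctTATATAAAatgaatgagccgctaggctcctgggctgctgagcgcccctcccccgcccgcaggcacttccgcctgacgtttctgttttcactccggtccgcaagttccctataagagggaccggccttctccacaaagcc
All 79 symbols matched a RefSeq gene and 73 had a promoter in the table used. The 6 without one were Hist1h2bc, Hist1h3a, Hist1h3f, Hist2h2be, Hist2h4 and H2afx. The H1 box stood in 5 of the 6 Hist-named H1 promoters, all but that of Hist1h1a, and in 6.25% of all 32851 promoters of the same length. Among Hist-named genes, CCAAT stood in all 6 H1, all 18 H2A and all 16 H2B promoters but in only 3 of 12 H4 promoters, against 33.8% of all promoters. The octamer stood in 7 of 18 Hist-named H2A and 6 of 16 Hist-named H2B promoters, against 1.60% of all. It stood in 0 Hist-named H1, H3 and H4 promoters. Among the variants, the promoter of H3f3b held it. The promoter of H1f0 held none of the 4 motifs. These matches are letters in a window and not sites of binding.

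The Tdg_WT library held 39819010 UMIs in 5604 barcodes and Tdg_KO 52586319 UMIs in 5896 barcodes, and 8 barcodes occurred in both. Kept cells numbered 5504 and 5693, and 4193 and 3801 of them fell into 11 cell classes that each held 100 cells or more per library. The classes were named "-like" from their markers after joint clustering that left histone genes out, and all are lymphocytes, mononuclear phagocytes or neutrophils. One further cluster, led by Clu, Krt8 and Krt18, held 44 and 81 barcodes with epithelial or tumour markers and was not compared. Median UMIs per kept cell were 5378 and 6419. Barcodes with genes of both T cells and phagocytes made up 1.62% of the cells in the classes in Tdg_WT and 3.13% in Tdg_KO. Histone RNA made up 0.776% of all UMIs in Tdg_WT and 0.718% in Tdg_KO. The part of depth and mixed barcodes in the differences below was not tested.

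The replication-independent variants made up most of the histone RNA counted. Levels in this paragraph and the next are CPM over all kept cells, and count 3′ ends, which are not divided by gene length. H3f3b, one of the pair of H3.3 genes, stood at 3468 in Tdg_WT and 3276 in Tdg_KO, and H3f3a at 1592 and 1404. H2afz, which encodes H2A.Z, stood at 1046 and 1096. Below these came H2afj at 358 and 318, H2afy at 277 and 293, and H2afv at 164 and 172. H2afx, the H2A that is phosphorylated at DNA breaks, stood at 39.4 and 41.2. In these 7 genes the libraries lay closer together than in the Hist-named genes with the widest gaps.

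**Figure D1:**
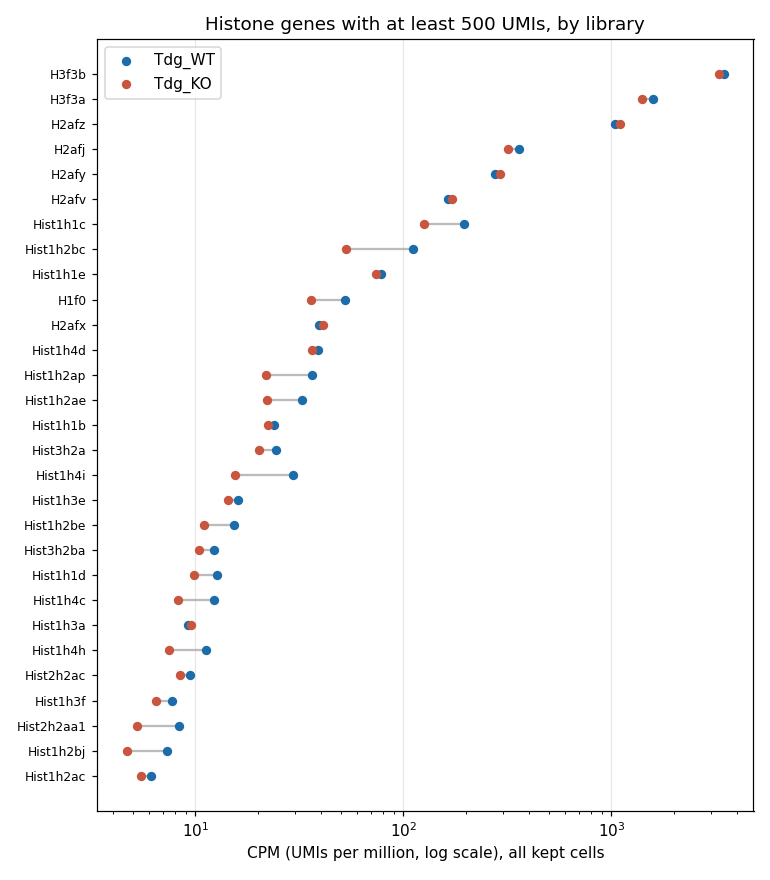
CPM in each library (log axis) for the 29 histone genes with at least 500 UMIs, with 1 point per library and a grey line between them. The H3f3 and H2af genes other than H2afx lie on top with points close together, and Hist1h1c, Hist1h2bc, Hist1h4i and Hist1h2ap show the widest gaps among the well-counted genes.

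Among Hist-named genes the linker gene Hist1h1c had the most UMIs, 197 CPM in Tdg_WT and 126 in Tdg_KO. It was followed by Hist1h2bc, an H2B gene, at 111 and 53.0, and by the linker gene Hist1h1e at 78.2 and 73.9. H1f0, the linker of resting and differentiated cells, stood at 52.4 and 35.8. Hist1h4d stood at 39.0 and 36.4, and Hist1h2ap at 36.5 and 21.8. Hist1h1c, Hist1h2bc, H1f0 and Hist1h2ap were lower in Tdg_KO by more than Hist1h1e and Hist1h4d were.

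To keep the mix of cells out of the comparison, the ratio of UMI rates was taken within each class and combined over the 11 classes (Mantel-Haenszel). A gene counted as lower or higher when this ratio was at least 1.5-fold from 1 and the gene had at least 50 UMIs. Of 50 histone genes with enough UMIs 12 were lower in Tdg_KO and 0 were higher. Of all 11781 genes tested, 2.05% were lower and 3.16% higher. The rule that chose the set used this contrast, so the count is a description. All 12 were among the 42 Hist-named genes tested, whose median ratio was 0.814. None was among the 8 variants (H2af, H3f3 and H1f0 genes), whose median was 0.997, and the median over all genes was 1.05. Over the 72 genes, 43 had fewer than 500 UMIs. Of these 21 could be tested, with ratios from 0.414 to 1.45, and 6 of them were lower.

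**Figure D2:**
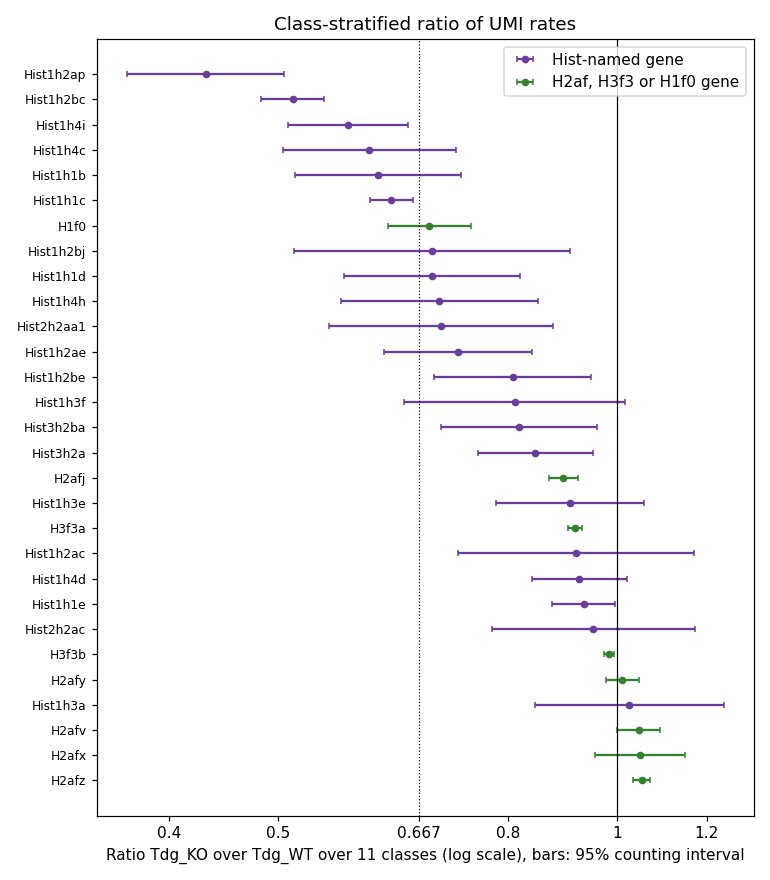
Ratio of UMI rates, Tdg_KO over Tdg_WT, combined over 11 cell classes (log axis) for the 29 histone genes with at least 500 UMIs. Bars are 95% intervals for counting error, the solid line marks 1 and the dotted line 1.5-fold lower. The Hist-named genes spread from 0.431 to 1.02, while the H3f3 and H2af genes lie between 0.896 and 1.05 and H1f0 at 0.681.

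Linker H1 genes differed among themselves. Hist1h1c had a ratio of 0.630 (0.603 to 0.659) over the classes and Hist1h1b one of 0.613 (0.517 to 0.727). Hist1h1d stood at 0.685 (0.572 to 0.820) and H1f0 at 0.681 (0.625 to 0.741), just short of the 1.5-fold limit. Hist1h1e, which has the same H1 box, CCAAT and TATANA matches as those 3 Hist-named genes, stood at 0.933 (0.875 to 0.995). Its interval does not reach those of the other 4. With classes set by gating on markers in place of clusters, Hist1h1b stood at 0.977 and was no longer lower, and Hist1h2ap and Hist1h4c, given below, stood at 0.746 and 0.754. With each cell thinned to 1000 UMIs Hist1h1d stood at 1.05. The annotated Hist1h1e transcript overlaps that of Hist1h2be on the same strand, with all of its last 300 windows of 90 bases shared, so its count is uncertain.

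Of the Hist-named families, H2A had the widest spread among genes with at least 500 UMIs. Hist1h2ap, a typical S-phase gene, had a ratio of 0.431 (0.367 to 0.506) and Hist1h2ae one of 0.722 (0.621 to 0.841). Hist2h2aa1 stood at 0.698, Hist3h2a at 0.846, Hist1h2ac at 0.919 and Hist2h2ac at 0.952. Hist1h2ap and Hist2h2aa1 share all of their last 300 windows with transcripts of other H2A genes, so reads may have been dropped or split between copies and their counts are uncertain. Among the variants, H2afj stood at 0.896 (0.870 to 0.923), H2afy at 1.01, H2afv at 1.04, H2afx at 1.05 and H2afz at 1.05 (1.03 to 1.07). All 4 H2B genes with at least 500 UMIs had intervals below 1. Hist1h2bc stood at 0.515 (0.483 to 0.549), Hist1h2bj at 0.684, Hist1h2be at 0.808 and Hist3h2ba at 0.818.

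Both H3.3 genes were near 1, H3f3b at 0.983 (0.974 to 0.993) and H3f3a at 0.918 (0.905 to 0.931). The Hist-named H3 genes with at least 500 UMIs lay closer to them than to Hist1h1c, with Hist1h3f at 0.811, Hist1h3e at 0.908 and Hist1h3a at 1.02. Of all 7 Hist-named H3 genes tested 2 were at least 1.5-fold lower, among them Hist1h3c at 0.591. Hist1h3e and Hist1h3f share 71.3% and 71.7% of their last windows with each other, so their counts are uncertain. H4 genes all encode the same protein, and the 4 with most UMIs differed. Hist1h4i stood at 0.577 (0.510 to 0.652) and Hist1h4c at 0.602 (0.505 to 0.719), Hist1h4h at 0.695, and Hist1h4d at 0.925 (0.840 to 1.02). The intervals of Hist1h4d and Hist1h4i did not overlap.

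Genes on both sides of the 1.5-fold limit lay next to each other on chromosome 13. The Hist1 genes lie in 2 blocks there (GRCm38), 23 genes at 21715763 to 22043676 and 31 genes at 23531050 to 23934851. In the first block 6 of 11 tested genes were at least 1.5-fold lower (median ratio 0.613), and in the second 5 of 22 (median 0.826). Of all genes tested 2.05% were lower. Among the 6, Hist1h2ap, Hist1h2br, Hist1h4n and Hist1h2ag share from 75% to 100% of their last 300 windows with other transcripts, so their counts are uncertain. The other genes of the 6, Hist1h1b and Hist1h4i, share 0%. Hist1h2bc (13, 23684199 to 23692908, plus strand) and Hist1h2ac (minus strand) run in opposite directions with 250 bases between them. Their ratios were 0.515 and 0.919 (0.722 to 1.17), with 7179 and 530 UMIs. Hist1h1c (13, 23738808 to 23740367, plus strand) lies 40353 bases from its nearest upstream histone gene, Hist1h4c.

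Hist1h1c was below 1 in all 11 classes and at least 1.5-fold lower in 7. In NK-like cells, the class with the most Hist1h1c UMIs, it stood at 215 CPM in Tdg_WT and 130 in Tdg_KO, a ratio of 0.607 (0.557 to 0.661). In CD8 T-like cells it stood at 200 and 110, the lowest ratio at 0.548 (0.479 to 0.626). B-like cells had 307 and 189 (0.616), cDC2-like cells 254 and 160 (0.631), CD4 T-like cells 193 and 123 (0.637), Treg-like cells 162 and 94.5 (0.582), and naive T-like cells 161 and 94.5 (0.585). The other 4 classes were nearer to 1. Gamma-delta T-like cells had 189 and 136 (0.720), neutrophil-like cells 294 and 236 (0.802), monocyte-like cells 139 and 106 (0.763), and macrophage-like cells 127 and 105 (0.826, 0.633 to 1.08).

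Hist1h2bc was at least 1.5-fold lower in 8 of 11 classes, and its classes differed more from each other. In Treg-like cells it stood at 99.3 CPM in Tdg_WT and 28.6 in Tdg_KO, a ratio of 0.288 (0.226 to 0.363). Gamma-delta T-like cells had 68.1 and 20.4 (0.300), CD4 T-like cells 105 and 37.2 (0.355), NK-like cells 107 and 46.2 (0.431), and CD8 T-like cells 101 and 47.4 (0.468). Naive T-like cells had the lowest level in Tdg_WT, 37.2, against 20.5 (0.550), and B-like cells had 239 and 136 (0.568). The 4 myeloid classes, each taken as a whole, had ratios from 0.665 up. Neutrophil-like cells had 240 and 162 (0.676), monocyte-like cells 81.4 and 54.1 (0.665), cDC2-like cells 88.5 and 77.4 (0.875, 0.666 to 1.15), and macrophage-like cells 126 and 164 (1.30, 1.03 to 1.66).

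**Figure D3:**
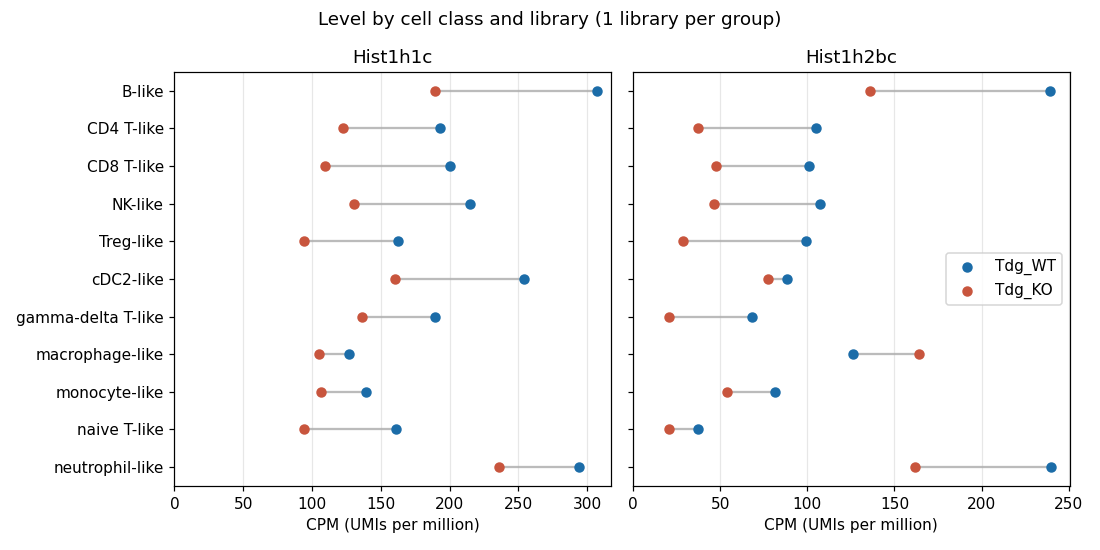
CPM of Hist1h1c (left) and Hist1h2bc (right) in 11 cell classes, with 1 point per library joined by a grey line. Tdg_KO lies left of Tdg_WT for Hist1h1c in all 11 classes, and for Hist1h2bc in 10, with macrophage-like cells the exception at 126 and 164.

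The macrophage value moved with how cells were clustered and how deeply they were read. The largest macrophage-like cluster, led by Ccl8, Apoe and C1qc, held 121 of 244 such cells in Tdg_WT and 230 of 294 in Tdg_KO, and there the Hist1h2bc ratio was 1.36 (0.982 to 1.90). A second phagocyte cluster, led by C1qa, C1qb and Apoe, was kept out of the classes because 86.9% of its barcodes also held T cell genes. It had 103 CPM in Tdg_WT and 55.8 in Tdg_KO (0.540). With such mixed clusters named, a choice made after the data were seen, macrophage-like cells had a ratio of 0.707. With each cell thinned to 1000 UMIs it was 2.15. Phagocyte markers also differed between the libraries in this class, with a summed level of 36504 CPM in Tdg_WT and 51954 in Tdg_KO. Their part in the Hist1h2bc value was not tested.

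Single clusters within a class differed as well. In the neutrophil-like class the cluster led by Slc7a11, Il23a and Il1a had a Hist1h2bc ratio of 0.587 (0.458 to 0.745), and the cluster led by Cstdc4, S100a9 and S100a8 one of 1.44 (0.986 to 2.07). Of the 2 CD8 T-like clusters, that led by Nrgn, C2cd4b and Cd8a had 0.160 (0.0941 to 0.262), from 105 to 16.9 CPM, and that led by Cd8b1, Cd8a and Gzmk had 0.649 (0.519 to 0.811). Among NK-like clusters the values ran from 0.231 in that led by Serpinb9b, Cma1 and Gzma to 0.635 in that led by Klra4, Klra8 and Eomes. In the monocyte-like class the larger cluster, led by Chil3, Ccl2 and F13a1, had 96.2 CPM in Tdg_WT and 18.3 in Tdg_KO (0.190, 0.0914 to 0.358), from 84 and 11 UMIs. Low Hist1h2bc ratios also occurred in myeloid clusters outside the 11 classes: 0.379 in migratory DC-like cells, 0.297 in a mixed cluster led by Cd209a, Cd209d and Clec10a, and 0.398 in a mixed cluster led by Chil3, Thbs1 and Vcan. In a cluster led by Hspa1a, Hspa1b and Dnajb1 Hist1h2bc stood at 0.815 (0.654 to 1.01) and Hist1h1c at 0.914 (0.756 to 1.10). Hist1h1c stood at 1.15 (0.739 to 1.82) in ILC2-like cells. In a low-UMI cluster led by Gm26917, Ttn and Neb it stood at 4.28 (1.58 to 14.5), from 5 and 22 UMIs. It was below 1 in each other cluster compared here, which left out clusters with few cells in a library. Among those left out was the cluster of dividing lymphocytes, where Hist1h1c stood at 1.15 (given below). The difference between these clusters was not tested.

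Other histone genes were lower mainly in lymphoid classes, where more of them had enough UMIs. In Treg-like cells 10 of 23 histone genes tested were at least 1.5-fold lower and 0 higher, against 2.47% and 3.35% of all genes. Besides the pair above, Hist1h1d had 13.7 and 3.53 CPM (0.257, 0.123 to 0.501), Hist1h2ap 23.6 and 7.95 (0.337), Hist1h4c 14.8 and 5.30 (0.358) and Hist1h3e 14.4 and 5.59 (0.387). Hist1h1b, Hist1h2bj, Hist3h2a and Hist1h2ae followed at 0.532, 0.532, 0.630 and 0.662. Summed, the Hist-named genes without Hist1h1c and Hist1h2bc were at 440 CPM in Tdg_WT and 274 in Tdg_KO there (0.623, 0.571 to 0.678), while the sum of the variants was 7480 and 7835 (1.05). Barcodes with a Mki67 UMI made up 10.9% of Treg-like cells in Tdg_WT and 8.32% in Tdg_KO, and the part of that difference was not tested.

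In CD4 T-like cells 8 of 27 histone genes were lower and 1 higher, against 1.91% and 4.64% of all genes. Hist1h4i had 27.7 and 12.1 CPM (0.439) and Hist1h2ap 15.5 and 6.74 (0.434). Hist1h1b, Hist1h3a, Hist1h1d and Hist1h4c lay between 0.639 and 0.655 with intervals that reached 1, and the gene that was higher, Hist1h2ac, had 4.85 and 8.09 (1.67, 0.916 to 3.10). In NK-like cells 8 of 33 were lower and 2 higher, against 1.57% and 3.5% of all genes. Among them were Hist1h2ap at 23.0 and 9.74 (0.423), Hist1h1b at 23.7 and 12.7 (0.534), H1f0 at 43.1 and 25.04 (0.581), Hist1h4c at 0.623, Hist1h2bn at 0.643 and Hist1h1d at 0.650. The interval of Hist1h2bn reached 1. Both that were higher, Hist1h2bj at 1.51 and Hist1h3i at 1.52, had intervals that reached below 1.

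In CD8 T-like cells 6 of 25 were lower and 0 higher, against 2.13% and 4.86% of all genes. H1f0 had 32.5 and 14.0 CPM (0.430, 0.295 to 0.618), Hist1h2ap 0.459, Hist1h4i 0.581 and Hist1h4c 0.651. In B-like cells 6 of 17 were lower and 0 higher, against 3.53% and 4.97%. Hist1h2ae stood at 27.4 and 11.8 (0.431), Hist1h2ap at 28.5 and 13.5 (0.473), Hist1h4i at 54.3 and 32.1 (0.590) and Hist3h2ba at 0.644. Barcodes with genes of another lineage made up 25.2% of B-like cells in Tdg_WT and 25.9% in Tdg_KO. Their part in these values was not tested. Hist1h2ap was 1.5-fold lower in each of the 5 classes where it could be tested, with all 5 intervals below 1. Hist1h4c was lower in 4 of 4, with 2 intervals below 1. Hist1h4i was lower in 4 of 6 and H1f0 in 3 of 10, with 6 and 5 intervals below 1. The interval of Hist1h2ae lay below 1 in 1 of 5 classes tested, and that of Hist3h2ba in 0 of 5.

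In naive T-like cells 3 of 12 were lower and 1 higher, against 3.36% and 5.21%. Hist1h1e was the third, with 64.6 and 40.9 CPM (0.634, 0.446 to 0.893), and H2afx was higher with 35.4 and 55.1 (1.56, 1.08 to 2.25). In gamma-delta T-like cells 2 of 12 were lower and 0 higher, against 2.61% and 8.21%, namely Hist1h2bc and H1f0 (0.483). In cDC2-like cells 2 of 12 were lower and 0 higher, against 3.33% and 8.7%, namely Hist1h1c and Hist3h2a (0.565). In monocyte-like cells 1 of 10 (Hist1h2bc) was lower and 0 higher, against 4.53% and 13.4%, and in macrophage-like cells 0 of 10 were lower and 0 higher, against 6.36% and 14.3%.

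Neutrophil-like cells differed in which genes stood out. There 2 of 14 were lower and 1 higher, against 6.25% and 20.6% of all genes, and the median ratio over all genes was 1.13. Hist1h4i had its highest level of all classes in this one, 138 CPM against 54.4 in Tdg_KO (0.395, 0.280 to 0.546). Hist1h4h had 33.2 and 15.7 (0.473). Hist1h1e, by contrast, had 18.7 and 36.3 (1.94, 1.13 to 3.31), from 31 and 30 UMIs. The class held 687 cells in Tdg_WT and 241 in Tdg_KO, and barcodes with genes of another lineage made up 15.7% and 23.2%. Their part in these values was not tested.

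Cycling barcodes were defined by at least 1 UMI of Mki67, a marker of proliferating cells. They numbered 193 (4.60%) in Tdg_WT and 225 (5.92%) in Tdg_KO among the classes and were deeper, with median UMIs of 8931 and 10406 against 4791 and 5395.5 in the others. Outside them 13 of 47 histone genes were at least 1.5-fold lower in Tdg_KO and 0 higher, against 2.01% and 3.24% of all genes. Hist1h1c stood at 0.624 and Hist1h2bc at 0.505 there. Within cycling barcodes 5 of 20 were lower and 0 higher, against 2.71% and 5.2% of all genes, and Hist1h1c stood at 0.735 and Hist1h2bc at 0.606. Both genes were thus below 1 in barcodes with and without Mki67, and barcodes with T cell and phagocyte genes made up 6.74% and 8% of the cycling ones, against 1.38% and 2.82% of the others.

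Within a library, the difference between cycling and other barcodes depended on how cells were clustered. The clustering used cell cycle genes, and 96 dividing lymphocytes formed a cluster of their own outside the classes. Among the cells left in the classes, 7 of 41 histone genes were at least 1.5-fold higher in cycling barcodes of Tdg_WT and 6 lower, against 6.59% and 7.68% of all genes. In Tdg_KO 3 of 37 were higher and 1 lower, against 5.42% and 5.63%. The highest in Tdg_WT, of genes tested in both libraries, were Hist1h4a at 2.02 (0.708 in Tdg_KO), Hist1h2bj at 1.96 (0.611), Hist1h2ap at 1.79 (1.38), Hist1h3i at 1.74 (1.54) and Hist1h1b at 1.61 (0.857). The lowest were Hist1h1a at 0.153 (2.48), Hist2h4 at 0.515 (1.07), Hist1h4h at 0.598 (1.24), Hist3h2a at 0.600 (0.773) and Hist4h4 at 0.654 (0.948). With cell cycle genes kept out of the clustering, chosen after the data were seen, 237 and 275 cycling barcodes were in the classes, and 30 of 47 histone genes were higher and 1 lower in Tdg_WT, against 7.62% and 6.84% of all genes. In Tdg_KO 27 of 41 were higher and 0 lower, against 6.05% and 5.13%. Of 41 histone genes tested in both libraries, 23 were higher in both. The share of all genes higher in both was not counted, so nothing is read from this overlap. Between the libraries, 12 of 49 were lower and 0 higher in Tdg_KO outside cycling barcodes (2.05% and 3.35% of all genes), and 8 of 35 lower and 0 higher within them (2.66% and 5.08%). Gating on markers, which does not use clusters, gave 29 of 43 histone genes higher in cycling barcodes of Tdg_WT (853 of all 10339 genes) and 27 of 43 in Tdg_KO (1156 of 10836).

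In that second clustering the ratio differed widely between genes. Ranked in Tdg_WT among genes with at least 50 UMIs in each library, the 5 highest were all Hist-named. The H2A gene Hist1h2ab had a ratio of cycling over other barcodes of 20.8 in Tdg_WT and 12.4 in Tdg_KO, Hist1h3c 12.9 and 9.25, Hist1h1b 8.14 and 8.16, Hist1h2ap 6.76 and 7.79, and Hist1h2bb 6.45 and 3.26. Hist1h2ab, Hist1h3c, Hist1h2ap and Hist1h2bb share 68.7%, 32.7%, 100% and 48% of their last 300 windows with other transcripts, so their counts are uncertain. Hist1h1b, which shares 0%, went from 13.3 to 128 CPM in Tdg_WT and from 10.0 to 94.1 in Tdg_KO. Hist1h1e was at 1.54 and 1.45, H2afx at 2.08 and 1.69, H3f3a at 0.909 and 0.941, and H3f3b at 0.920 and 1.00. Hist1h1c stood at 0.849 (0.770 to 0.936) in Tdg_WT and 1.15 (1.04 to 1.27) in Tdg_KO, and Hist1h2bc at 0.847 (0.745 to 0.962) and 1.13 (0.971 to 1.32), so neither was 1.5-fold higher in cycling barcodes of either library. Among the lowest in Tdg_WT were Hist2h4 at 0.808 (1.31 in Tdg_KO), Hist3h2ba at 0.788 (1.56) and Hist4h4 at 0.761 (0.935), and the lowest, Hist3h2a, stood at 0.563 and 0.748.

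**Figure D4:**
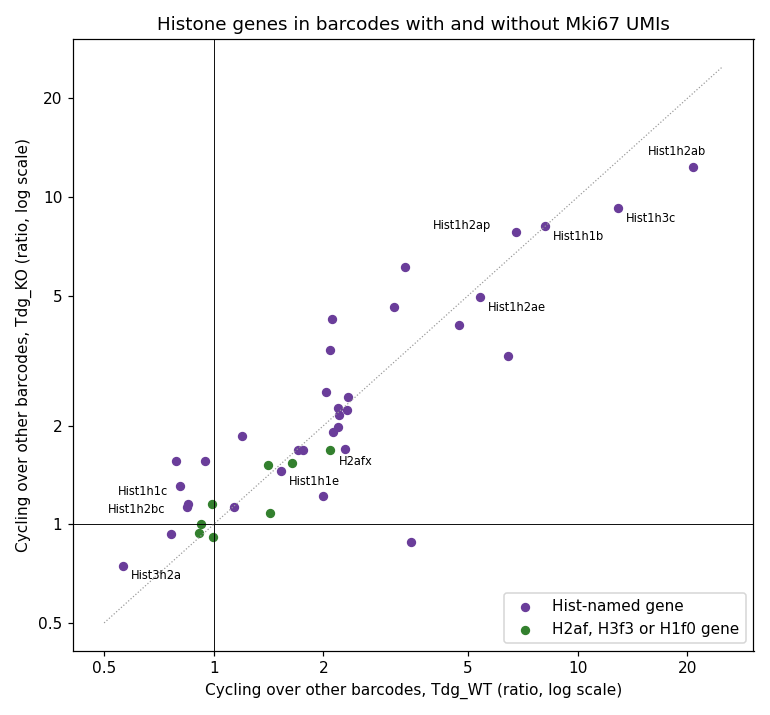
Ratio of UMI rates in cycling (Mki67 at least 1 UMI) over other barcodes, Tdg_WT on the horizontal and Tdg_KO on the vertical axis (both log), for the 41 histone genes tested in both libraries, with cell cycle genes kept out of the clustering. The dotted line marks equal ratios; Hist1h2ab, Hist1h3c, Hist1h1b and Hist1h2ap lie far up the diagonal, and Hist1h1c and Hist1h2bc lie near 1.

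The cluster of dividing lymphocytes held 42 cells in Tdg_WT and 54 in Tdg_KO, and Mki67 UMIs were in 92.9% and 83.3% of them. It was left without a class because the cell cycle genes Pclaf, Mki67, Birc5 and Ccnb2 were among its leading genes. Histone genes played no part in forming it or leaving it without a class. Its cells were set apart partly by cell cycle genes, so its high S-phase histone genes are a description. Its median UMIs were 15868 and 15810, and 9.52% and 12.96% of its barcodes held genes of both T cells and phagocytes. Set beside 6 lymphoid classes (CD4 T, CD8 T, NK, Treg, gamma-delta T and naive T), the Hist-named genes without Hist1h1c and Hist1h2bc summed to 4049 CPM in the cluster and 416 in the classes in Tdg_WT, a ratio of 9.74 (9.33 to 10.2). In Tdg_KO they summed to 3267 and 340, a ratio of 9.60 (9.21 to 10.0). The sum of the variants was 1.25 and 1.32 times that of the classes.

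Hist1h1c was much nearer to its level in the classes than Hist1h1b, Hist1h1d and Hist1h1e were. In Tdg_WT it had 178 CPM, against 193 in the lymphoid classes (0.924, 0.773 to 1.10). In Tdg_KO it had 204 against 117 (1.74, 1.51 to 2.003). Between the libraries its ratio within the dividing cluster was 1.15 (0.921 to 1.43), while Hist1h2bc had 123 and 81.0 CPM (0.657, 0.485 to 0.890). The difference between these genes was not tested. Hist1h1b had 466 in Tdg_WT and 514 in Tdg_KO, 29.7 and 48.7 times the classes, and Hist1h1d 109 and 86.7, 8.81 and 11.8 times. Hist1h1e had 345 and 307, 3.91 and 3.64 times. Of the variants, H2afx was furthest above the classes, at 4.40 times in Tdg_WT and 3.56 in Tdg_KO. H2afv stood at 3.16 and 3.35, H2afz at 2.25 and 2.16, and H3f3b at 0.894 and 0.945.

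**Figure D5:**
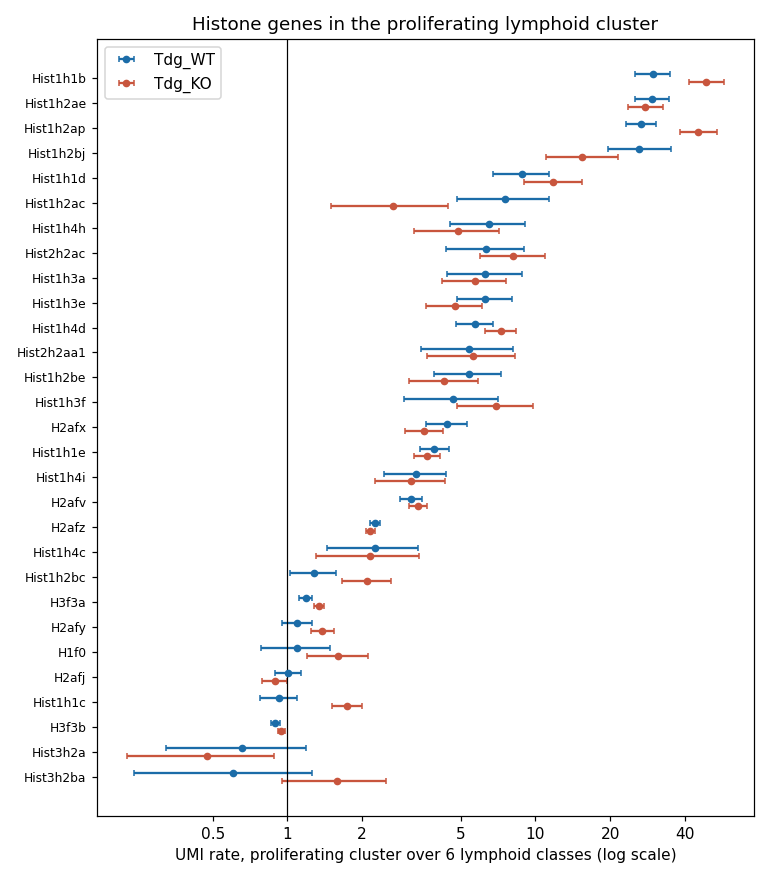
UMI rate in the proliferating lymphoid cluster over that in 6 lymphoid classes (log axis) for the histone genes with at least 500 UMIs, with 1 point per library and 95% counting intervals. Hist1h1b, Hist1h2ae and Hist1h2ap lie at 26.7 or more in both libraries, H3f3b lies just below 1, and Hist1h1c lies at 0.924 in Tdg_WT and 1.74 in Tdg_KO.

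Genes that make and handle histones gave these values over the classes. Of all 11781 genes tested there, 2.05% were lower and 3.16% higher. Of 18 tested genes for histone transcription and 3′ end processing, 0 were 1.5-fold lower and 0 higher in Tdg_KO, with a median ratio of 1.10. Slbp, the stem-loop binding protein, had 95.5 and 106 CPM in the classes (1.09, 1.03 to 1.15), and Casp8ap2, a component of the histone locus body, 45.3 and 50.3 (1.07). Of 27 chaperone and exchange genes 0 were lower and 0 higher (median 1.08), with Npm1 at 1.02, Set at 1.10, Nap1l1 at 1.02 and the replication chaperone Asf1b highest at 1.495, just short of the limit. DNA replication genes had 0 lower and 3 higher of 21 (Cdc45, Mcm2 and Pclaf, median 1.19), and Pcna, the sliding clamp, stood at 1.19 (1.13 to 1.25). Mitosis genes had 0 lower and 3 higher of 15 (Ccnb1, Cdc20 and Cenpe, median 1.05). Cks2, with the most UMIs of them, stood at 0.848 (0.810 to 0.887), and Ube2c was lowest at 0.794 (0.625 to 1.01). Of the histone genes outside the rule, the linker H1fx had 3.90 and 1.52 CPM (0.409, 0.282 to 0.593), and Cenpa, the centromeric H3, stood at 1.04.

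Lists that track stress and other cells were read over the same classes too, where 2.05% of all genes were lower and 3.16% higher. Immediate early and stress genes had 0 lower and 0 higher of 15 (median 1.12), with Junb at 1.14, Jund at 0.833 and Fosb at 1.43. T cell genes (0 and 0 of 5, median 0.996) and B cell genes (0 and 0 of 5, median 1.04) had medians near 1 over all classes together. In 3 of the myeloid classes all 5 T cell genes were at least 1.5-fold higher. Their medians were 2.94 in monocyte-like, 2.96 in cDC2-like and 2.13 in neutrophil-like cells. Of all genes 13.4%, 8.7% and 20.6% were higher in these classes. T cell markers summed to 281 and 866 CPM in monocyte-like cells, 84.1 and 258 in cDC2-like cells, and 643 and 1336 in neutrophil-like cells. Stress genes were higher for 8 of 15 in macrophage-like cells (median 1.54), against 14.3% of all genes. There 3 of 3 neutrophil genes tested were lower (median 0.277), against 6.36%. In cDC2-like cells 6 of 15 stress genes were higher (median 1.34), against 8.7%. The part of these markers in the histone values of those classes was not tested. Phagocyte genes had 5 of 8 higher (median 1.60, Apoe at 1.69), and neutrophil genes 1 of 5 lower (S100a8 at 0.647). In Treg-like cells, where Hist1h1c and Hist1h2bc were lower, phagocyte markers summed to 88.1 CPM in Tdg_WT and 83.3 in Tdg_KO. In the same cells neutrophil markers summed to 52.5 and 12.7, whose part was not tested.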

How the data were processed

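The authors deposited filtered matrices of UMI counts, whole numbers for each gene in each barcode, from Cell Ranger 6.0.1 per the file headers. Besides that tool, Seurat and the build mm10 appear in the submitters' processing notes; other settings were not given. The lowest barcode totals were 500 and 502 UMIs. Cells with at least 200 genes and at most 10% mitochondrial UMIs were clustered together (scanpy 1.11.5, 2000 variable genes without histone genes, 30 components, 15 neighbours, resolution 1). Of 39 clusters 28 were named from markers, and the others were not: those led by proliferation, stress, interferon or another type's genes, those of low UMIs, and those with genes of 2 lineages in at least 50% of barcodes or of 2 lymphocyte subsets in at least 25%, limits set after seeing the data. No doublet caller was run; mixed barcodes were counted instead.

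UMIs were summed per class and library. Ratios per class have exact conditional Poisson intervals, and ratios over classes Mantel-Haenszel estimates with Greenland-Robins intervals; no p-value was computed. The call was 1.5-fold with 50 UMIs. The estimator was tested on simulated data.

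Histone genes with at least 500 UMIs are named in full; Hist1h1c and Hist1h2bc in every class; other genes where they pass the call in a class or rank among the 5 highest or lowest in the cycling split. From the 10 gene lists only some genes are named, and these are not in every list those with most UMIs or the most extreme ratios. The genes, lists and rules were chosen with earlier results of these data known. Stem-loops and shared windows came from GENCODE vM21 (GRCm38, the mm10 build), and promoters from RefSeq GRCm38.p6.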

Additional observations from a re-analysis of the deposited data

Results flagged for a closer look

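Hist1h1e went opposite ways in 2 classes. Its ratio, Tdg_KO over Tdg_WT, was 0.634 in naive T-like cells and 1.94 in neutrophil-like cells, with counting intervals on either side of 1, and the difference between the classes was not tested.

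With cell cycle genes among the clustering genes, H2afz had a ratio of cycling over other barcodes of 1.05 in Tdg_WT and 0.889 in Tdg_KO, and Hist1h2bc one of 0.829 in Tdg_WT and 1.22 in Tdg_KO. The difference between the libraries was not tested for either gene.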

How the results depend on the processing

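The 48 pairs of a class and a histone gene at least 1.5-fold lower in Tdg_KO became 13 with each cell thinned to 1000 UMIs. They became 16 with at least 200 UMIs required. Under thinning 4 classes each passed for Hist1h1c and Hist1h2bc (7 and 8 before). Over the classes 7 of 27 genes were lower (12 before), against 158 of all 8378. Outside cycling barcodes 8 of 26 were lower (13 before), against 159 of 8360. Within them 1 of 3 was lower (5 before), against 21 of 189. In cycling barcodes of Tdg_WT 4 of 20 were higher (7 before) and 9 lower, against 1639 and 2631 of all 6551 genes. In those of Tdg_KO 1 of 14 was higher (3 before) and 7 lower, against 1694 and 2455 of 6551. At 200 UMIs 5 classes passed for Hist1h2bc, and 6 of 32 genes were lower over the classes, against 88 of all 9445. Outside cycling barcodes 8 of 31 were lower (77 of all 9224), and within them 2 of 10 (31 of 3292). Higher in cycling barcodes were 2 of 24 in Tdg_WT (188 of all 7758) and 0 of 22 in Tdg_KO (143 of 7971). Both settings leave fewer genes with enough UMIs. Without barcodes of another lineage 2 of 36 genes were higher in cycling barcodes of Tdg_WT, against 723 of all 10107. With classes by gating 3 classes passed for Hist1h1c and 1 of 52 genes was higher over the classes, against 522 of all 11769. Without the top barcode 1 of 50 was higher, against 373 of 11781. Gating gave 29 and 27 of 43 genes higher in cycling barcodes of Tdg_WT and Tdg_KO, against 853 of all 10339 and 1156 of 10836. Outside cycling barcodes it gave 8 of 46 lower, against 217 of 11381. Tdg_KO had 7 of 37 higher with no cell filter (541 of all 10591) and 7 of 38 at Leiden resolution 0.5 (482 of 10769). These 3 settings had not been listed for the cycling counts. With cycling set by mitosis genes 1 of 37 genes was higher in Tdg_KO, against 321 of all 10718. With 2 Mki67 UMIs 9 of 36 were, against 1479 of 10572. Between libraries 2 of 12 were then lower within cycling barcodes, against 212 of 3884. Added after seeing the data, clustering without cell cycle genes gave 30 and 27 higher and 8 lower within cycling barcodes. The shares of all genes for it are given above. Naming mixed clusters, also added then, gave 12 of 44 and 13 of 43 higher, against 586 of all 11058 and 468 of 11494. It gave 11 of 31 lower within cycling barcodes, against 225 of 9463. With mixed clusters named, Hist1h2bc in macrophage-like cells reversed from 1.30 to 0.707. Except in the construction of the first pair of settings, the cause was not tested. Of values for single genes 207 did not move, 25 moved and 1 reversed. Over 14 settings the Hist1h1c ratio ran from 0.592 to 0.674 and that of Hist1h2bc from 0.479 to 0.585. That of Hist1h1b ran from 0.581 to 0.977 and that of Hist1h1d from 0.591 to 1.05. No paired analysis was possible because each group has 1 library.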
